A study of Mus musculus with 4 samples.

Results

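The SLC25 genes encode the mitochondrial carriers, a family of small membrane proteins that move metabolites, nucleotides, cofactors and ions across the inner membrane of mitochondria. Members were taken by symbol, as every gene named Slc25a followed by a number with a mean of at least 10 normalized counts over the libraries, and 41 of the 47 such symbols in the table met this, out of 16833 genes of any kind that did. The uncoupling proteins Ucp1 to Ucp3, which belong to the same protein family under other symbols, are not members. Whole retina of mice aged 3 weeks was compared between 2 libraries from wild-type animals (WT) and 2 from animals with Q344X, a mutation known from the dominant form of retinitis pigmentosa, an inherited disease in which photoreceptors are lost. The labels give no other allele or treatment for either group, and give neither the number of mutant copies nor the strain, sex or litter. Per the design text, samples were dropped from 3 per group for poor RNA or as outliers, leaving 2 animals each, whereas the extraction protocol counts 3 Q344X mice. Values are normalized counts, which are gene counts divided by a size factor for each library, and they are compared between genes only after division by exon length.

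Each carrier is built from a repeated pair of membrane-spanning helices and exchanges or imports a narrow set of substrates. ADP/ATP carriers and the phosphate carrier feed ATP synthase and export its product. Aspartate/glutamate carriers, with the oxoglutarate carrier, run the malate-aspartate shuttle that brings reducing equivalents of glycolysis into mitochondria, a route of weight in photoreceptors, which ferment and respire glucose at high rates. Glutamate is also the transmitter of photoreceptors, so its entry into mitochondria touches both energy supply and signalling.

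Depth was 18452679 and 19706573 gene-assigned reads in WT (replicate 1, then replicate 2) and 19034261 and 19346580 in Q344X. A normalized count of 1 stood for about 1 read in each, since 1 read was worth 0.960 to 1.04. Summed over 10 rod markers, levels were 962917 and 1098940 in WT and 392826 and 459101 in Q344X. Over 8 cone markers they were 27866 and 25547 against 11784 and 12552. Ganglion cell markers went the other way, with 15562 and 17670 in WT and 28317 and 33156 in Q344X over 10 genes. They were not alone in this. Over 8 bipolar cell markers, of which 2 rose and 0 fell, sums were 31584.5 and 27354 against 45231 and 35894. Over 9 pigment epithelium markers, of which 3 rose and 0 fell, they were 4222 and 4686 against 5706 and 7312. In whole tissue, fewer cells of a type and less RNA per cell cannot be told apart. Lens genes set 1 library apart: 8 crystallin and lens fibre genes summed to 197384 and 233721 in WT and 199126 in Q344X replicate 1. They summed to only 5652 in Q344X replicate 2. For several of the larger changes, values without that library, or the range with 1 library left out, are therefore given. Skeletal muscle markers were near background, with sums of 104 to 132 over 9 genes, 3 of them at 0 in at least 1 library.

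Most carrier genes did not differ between the genotypes beyond the threshold, and 5 did. In Q344X, 3 rose (Slc25a18, Slc25a13 and Slc25a46), 2 fell, Slc25a35 the further of them, and 36 members did not pass (limma, adjusted p under 0.05 over all genes tested). The 3 that rose are 7.32% of the members, beside 5.46% of all tested genes, and the 2 that fell are 4.88%, beside 9.1%. In both directions together 12.2% of the members passed, beside 14.6% of all genes, a share near that of the whole table. The median log2 fold change of the members was 0.08 and that of all tested genes 0.02. The middle of the members' distribution ran from -0.09 to 0.52 (quartiles), against -0.48 to 0.43 for all genes. A change of at least 1 in either direction was seen in 7 members, 17.1% of them beside 19.1% of all tested genes. Before adjustment 36.6% of the members had p under 0.05 (limma), beside 34.7% of all tested genes. Counts before adjustment given below for single groups of genes are to be read beside that share. The 2 Q344X libraries lay apart from both WT libraries for 22 members, 16 above and 6 below, which is 53.7% of the members beside 63.1% of all genes (31.4% above and 31.7% below). For 24 of the 36 members that did not pass, the 95% interval of the log2 fold change stayed between -1 and 1, and the interval's half-width had a median of 0.56 over the members. Without Q344X replicate 1, 8 members rose and 4 fell, and without Q344X replicate 2, 4 rose and 4 fell.

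**Figure D1:**
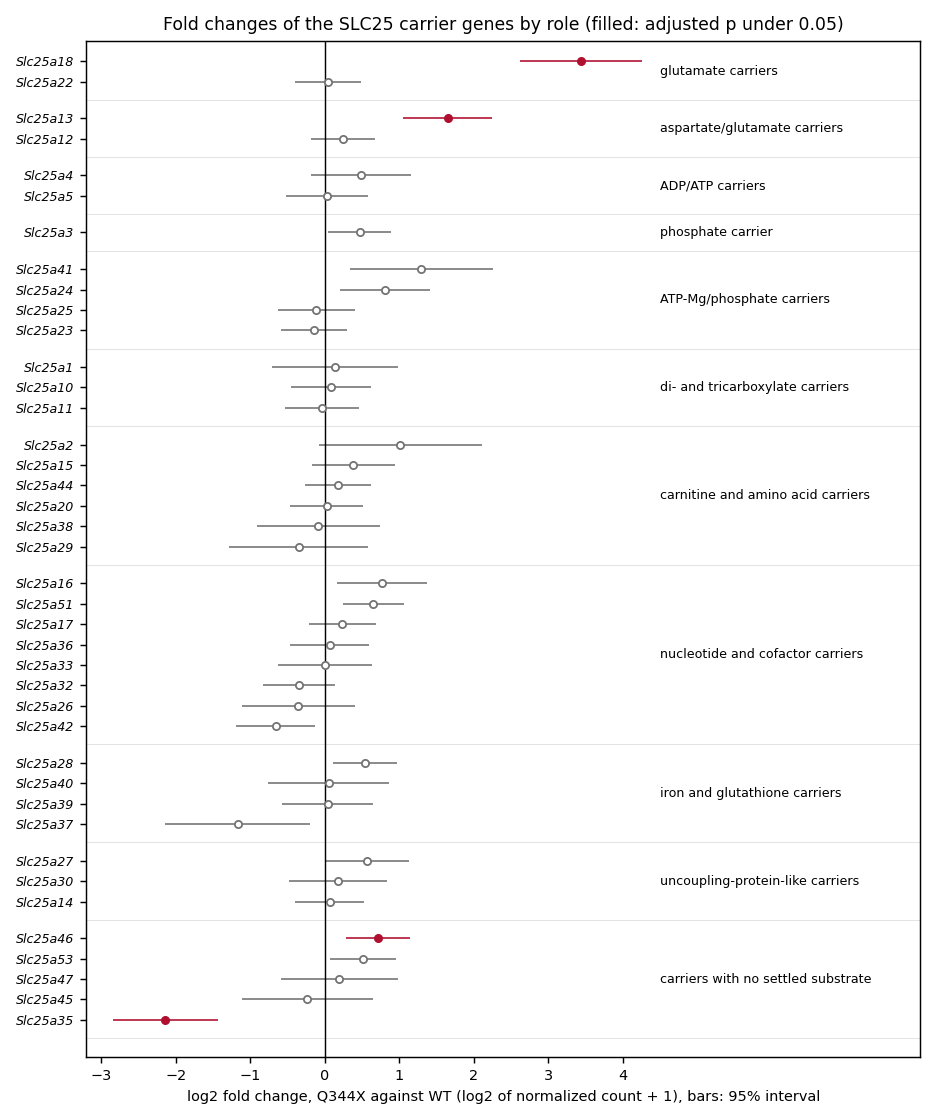
Log2 fold change of 40 of the 41 carrier genes in Q344X against WT, on the log2(normalized count + 1) scale, with its 95% interval, grouped by role. Filled red points passed the threshold: 3 lie to the right of 0, led by Slc25a18 at 3.45, and Slc25a35 to the left at -2.14, while 24 of the 36 open points have intervals inside -1 to 1.

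The 2 glutamate carriers, which import glutamate with a proton, stood far apart in response. Slc25a18, also called GC2 (ENSMUSG00000004902, chromosome 6, 120773578 to 120794336, GRCm38), gave 22.9 and 14.04 normalized counts in WT retina and 231 and 183 in Q344X retina. Both Q344X values were far above both WT values, and the group means rose from 18.5 ± 6.25 to 207 ± 33.5 (SD, n = 2, log2 fold change 3.45 ± 0.33, SE, adjusted p = 0.00612). This was the largest change in the family, 10.9-fold on the scale used, and it passed in each of the 12 alternative analyses (log2 fold change 3.11 to 3.78). Its partner Slc25a22, or GC1, the abundant glutamate carrier of neurons, was at 3039 and 3592 in WT and 3305 and 3520 in Q344X. These values overlapped, and its log2 fold change was 0.05, with a 95% interval of -0.40 to 0.49. Per kilobase of exon, Slc25a18 made up 2.31% and 1.21% of the glutamate carrier transcripts in WT and 17.96% and 14.04% in Q344X, so Slc25a22 was the more abundant in every library. Glia take up and convert glutamate, and 10 Müller glia genes, 1 of which rose and 2 of which fell, summed to 114230 and 101991 in WT and 101663 and 97519 in Q344X. Of 6 genes listed as astrocyte markers the low Pax2 rose and 5 did not pass, with a median log2 fold change of 0.13. Their sums, 9830 and 8758 against 7154 and 6149, were mostly the glutamate transporter Slc1a2 (7321 and 6637 against 4756 and 3832, adjusted p = 0.0609). Gfap, Aldh1l1, Pdgfra and S100b had log2 fold changes of -0.31, 0.04, 0.21 and 0.49. The part of glial markers in the rise of Slc25a18 was not tested. Of the exon bases of Slc25a18, 1.67% are shared with Atp6v1e1 on the other strand, a proton pump subunit gene whose own log2 fold change was 0.33.

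**Figure D2:**
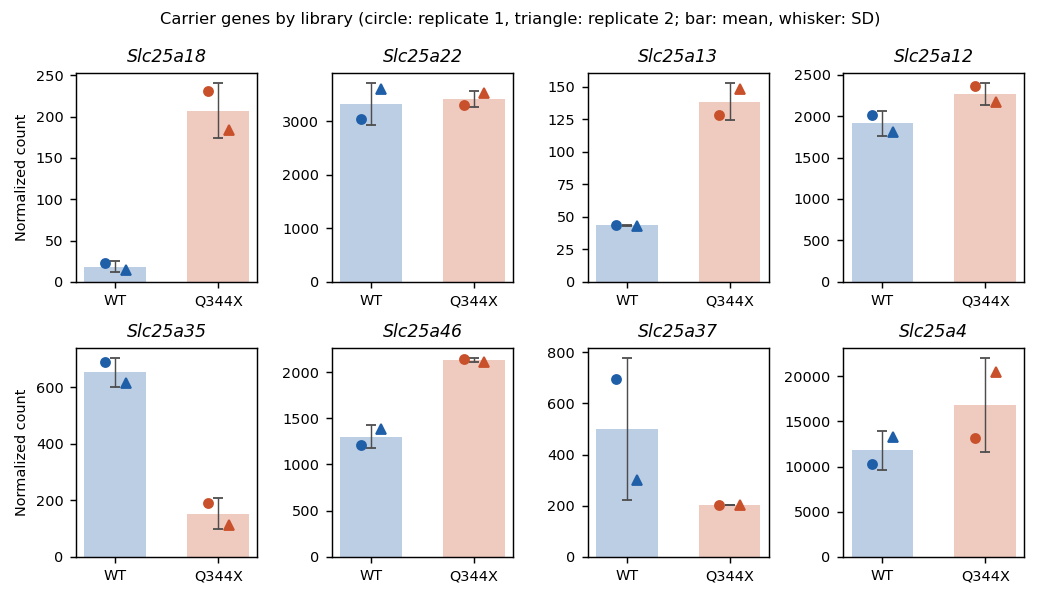
Normalized counts in each library for 8 carrier genes, with the mean (bar) and SD (whisker) of 2 libraries per genotype on axes that start at 0. Slc25a18 goes from a mean of 18.5 to 207 and Slc25a13 from 43.4 to 139, whereas the groups overlap for Slc25a22 and lie close together for Slc25a12. Slc25a35 is lower in both Q344X libraries, the WT libraries of Slc25a37 differ from each other, and the groups of Slc25a4 overlap.

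The aspartate/glutamate carriers showed the same split between a rare and an abundant form. These calcium-regulated exchangers send aspartate out of mitochondria for glutamate and are the step of the malate-aspartate shuttle that is driven one way. Slc25a13, or citrin, known as the liver form (ENSMUSG00000015112, chromosome 6, 6041218 to 6217173), was at 43.7 and 43.1 normalized counts in WT and 129 and 149 in Q344X. The groups did not overlap, and the WT libraries were nearly equal. The mean rose from 43.4 ± 0.40 to 139 ± 14.2 (SD, n = 2, log2 fold change 1.65 ± 0.25, SE, adjusted p = 0.0156). Its call held without any single library (adjusted p = 0.00107 to 0.0208) and was lost when genes of every level above 0 were tested (adjusted p = 0.0541). Slc25a12, or aralar, the form of brain and retina, was at 2019 and 1804 in WT and 2359 and 2176 in Q344X. Both Q344X values lay above WT, but the log2 fold change of 0.25 ± 0.17 did not pass (adjusted p = 0.353). Per kilobase, Slc25a13 was 4.02% and 4.42% of the sum of the pair in WT and 9.54% and 11.7% in Q344X.

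Promoter sequences are shown for Slc25a13 and Slc25a18, the 2 carriers that rose most, to set their start regions side by side. Each runs 5′ to 3′ on the gene's strand, from 250 bases before to 50 bases after the RefSeq transcription start (GRCm38.p6), and capitals mark matches to the motifs searched. For Slc25a13 this start is the gene boundary given above, 6217173. For Slc25a18 it lies downstream of the gene start given above, 120773578. Part of the Slc25a18 stretch before the RefSeq start, with the marked match, is therefore inside the annotated gene.
Slc25a13, chr6:6217124-6217423, minus strand: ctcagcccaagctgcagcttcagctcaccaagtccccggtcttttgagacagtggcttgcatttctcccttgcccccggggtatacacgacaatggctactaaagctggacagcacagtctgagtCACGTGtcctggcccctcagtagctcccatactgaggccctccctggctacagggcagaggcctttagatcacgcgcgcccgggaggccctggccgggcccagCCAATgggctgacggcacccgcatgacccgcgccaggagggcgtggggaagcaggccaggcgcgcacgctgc
Slc25a18, chr6:120773518-120773817, plus strand: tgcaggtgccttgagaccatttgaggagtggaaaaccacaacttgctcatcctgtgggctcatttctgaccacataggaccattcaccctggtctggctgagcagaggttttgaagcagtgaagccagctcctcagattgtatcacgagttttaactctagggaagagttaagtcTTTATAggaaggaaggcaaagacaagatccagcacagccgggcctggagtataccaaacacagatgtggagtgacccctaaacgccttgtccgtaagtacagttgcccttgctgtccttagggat

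The motifs, searched on both strands, were GGATTA (the core site of CRX-type homeodomain factors), CACGTG (the E-box), AAGGTCA (an extended nuclear receptor half-site), CCAAT and TATAAA, and no 2 of the matches shown overlap. The window of Slc25a13 holds 1 E-box, 125 bases before the start, and 1 CCAAT box, 22 bases before it. That of Slc25a18 holds 1 TATAAA, on the opposite strand. Its base composition also differs, with 49.3% G and C and 4 CG pairs against 65.0% and 17 CG pairs for Slc25a13, where the median over all 32851 RefSeq windows was 52.7% and 7. Windows were found for 30 of the 41 members (39 windows, since some genes have several starts), with a median of 60.0% G and C and 17 CG pairs, so Slc25a13 has the family's median number of CG pairs. Motif shares are thus set beside windows of another base composition. CACGTG was in 17.9% of these windows and in 7.15% of all windows, CCAAT in 51.3% against 37.4%, and TATAAA in 2.56% against 13.6%. GGATTA, present in 7.06% of all windows, and AAGGTCA, in 4.72%, were in 0 of the members' windows. A match is only a run of letters, and none was tested against expression.

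Of 19 genes of the malate-aspartate shuttle and of glutamate metabolism, which work beside these carriers, 17 did not pass, 0 rose and 2 fell. The 2 are 10.5% of the list, near the 9.1% of all tested genes that fell. The list's median log2 fold change was -0.16. Gpt2, the mitochondrial alanine transaminase, fell by 0.88 on the log2 scale (adjusted p = 0.0479), and this call ended without WT replicate 1 (0.256) or 2 (0.196) and without Q344X replicate 2 (0.0784). The shuttle enzymes did not pass, among them Mdh1, cytosolic malate dehydrogenase, with 0.16 ± 0.17. Glul, glutamine synthetase of Müller glia and the most abundant gene of the list, had -0.17 ± 0.20.

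Carriers of the ATP cycle were the most abundant of the family, and none of the 3 passed (limma, with Slc25a3 alone under 0.05 before adjustment). Slc25a4, the ADP/ATP carrier ANT1, had the highest level per kilobase (mean 6078), followed by the second ADP/ATP carrier Slc25a5, or ANT2 (2562), the phosphate carrier Slc25a3 (1168) and Slc25a33 (1052). Slc25a4 was at 10281 and 13296 normalized counts in WT and 13125 and 20499 in Q344X. The lower Q344X library sat within the WT range, and the log2 fold change was 0.49 ± 0.28 (SE, adjusted p = 0.260). It was 0.81 without Q344X replicate 1 (adjusted p = 0.0204), 0.17 without Q344X replicate 2 (0.694) and 0.30 without WT replicate 1 (0.736). Slc25a5 was at 3857 and 4455 in WT and 3567 and 4990 in Q344X, with the WT values lying between the Q344X ones and a log2 fold change of 0.03 ± 0.22. These ADP/ATP carriers are close in sequence, and Slc25a5 has processed pseudogenes, so reads may be split between copies. Slc25a3, which imports the phosphate used by ATP synthase, was at 5344 and 5524 in WT and 7049 and 8018 in Q344X. Both Q344X libraries were higher, with a log2 fold change of 0.47 ± 0.17 that did not pass (adjusted p = 0.121). Slc25a4, Slc25a5 and Slc25a3 together made up 52.1% and 54.7% of the family's summed level per kilobase in WT and 55.3% and 61.5% in Q344X.

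**Figure D3:**
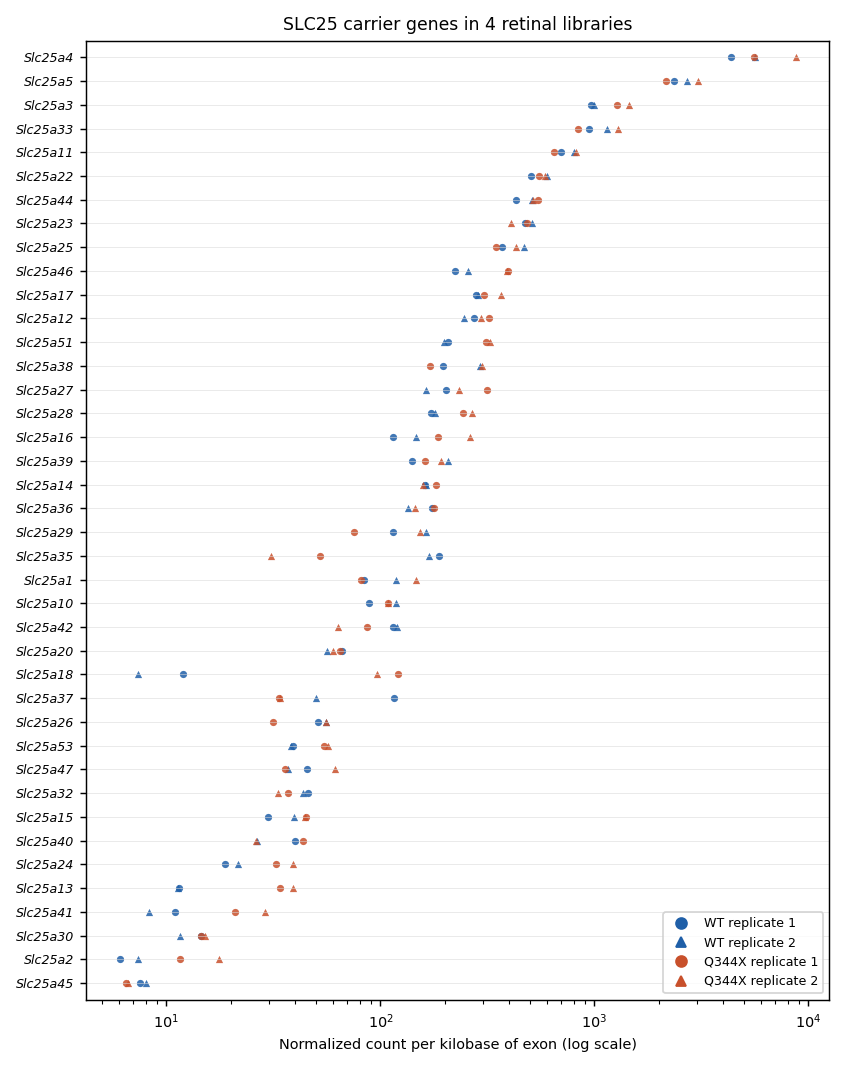
Level of 40 of the 41 carrier genes in each library, as normalized counts per kilobase of exon on a log axis, ordered by mean. Slc25a4 is at the top with a mean of 6078 and Slc25a45 at the bottom with 7.14, and the genotypes are seen apart for Slc25a18, Slc25a13 and Slc25a35.

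The ATP-Mg/phosphate carriers adjust the pool of adenine nucleotides in the matrix under control of calcium. Of 4 members none passed (limma, where Slc25a41 and Slc25a24 had an unadjusted p under 0.05, as did 34.7% of all tested genes). Slc25a41 was low, at 14.6 and 11.0 in WT and 27.7 and 38.4 in Q344X. Its log2 fold change was 1.30 ± 0.39 (SE, adjusted p = 0.0761), with 1.53 without Q344X replicate 1 and 1.07 without replicate 2. Slc25a24 was at 64.5 and 74.2 against 112 and 133 (0.81 ± 0.25, adjusted p = 0.0775, with 0.94 without Q344X replicate 1 and 0.69 without replicate 2). In both genes the Q344X libraries were above the WT libraries. The abundant Slc25a23 and Slc25a25 had -0.15 ± 0.18 and -0.11 ± 0.21, with overlapping groups. Slc25a41 and Slc25a23 are neighbours on the minus strand of chromosome 17, 2056 bases apart, and their fold changes differed in sign.

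Carriers of nucleotides and cofactors keep the matrix supplied with what its enzymes and its own genome need, and the 8 described here did not pass (limma, with Slc25a51, Slc25a16 and Slc25a42 under 0.05 before adjustment). Slc25a51, which imports NAD+, was at 1141 and 1088 in WT and 1707 and 1797 in Q344X. It was just outside the threshold (0.65 ± 0.17, adjusted p = 0.0531, with 0.62 to 0.69 when 1 library was left out). The carriers linked to coenzyme A had opposite signs. Slc25a16 was at 547 and 702 in WT and 887 and 1259 in Q344X (0.77 ± 0.25, adjusted p = 0.0874, with 0.52 to 1.02 when 1 library was left out). Slc25a42 was at 685 and 714 against 517 and 381 (-0.66 ± 0.22, adjusted p = 0.0927, with -0.87 and 0.0107 without Q344X replicate 1, and -0.44 and 0.237 without replicate 2). Neither passed with all libraries. Slc25a33, a pyrimidine nucleotide carrier, was at 1776 and 2150 in WT and 1581 and 2432 in Q344X (0.0051 ± 0.26). Of its exon bases 14.9% are shared with the antisense gene Gm13068 (log2 fold change -3.19), and since the library kit marks strand but no source used here says whether the counting used it, its value is uncertain. Slc25a36, the other pyrimidine carrier, had 0.07, the peroxisomal Slc25a17 had 0.24, the S-adenosylmethionine carrier Slc25a26 had -0.36 (-0.77 without Q344X replicate 2, and 0.0547 without replicate 1) and the folate or FAD carrier Slc25a32 had -0.35.

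Of the 4 iron and glutathione carriers none passed (limma, with Slc25a28 and Slc25a37 under 0.05 before adjustment). The mitoferrins bring iron into mitochondria for heme and iron-sulfur clusters. Slc25a37, or mitoferrin 1, the form of red cell precursors, was at 696 and 302 in WT and 203 and 203 in Q344X. The WT libraries differed from each other by more than the lower of them differed from Q344X, and the log2 fold change of -1.17 ± 0.40 (SE) had an adjusted p of 0.0977. It was -1.77 without WT replicate 2 (adjusted p = 0.00479) and -0.57 without WT replicate 1 (0.492), and it passed without Q344X replicate 1 (0.0114) or 2 (0.0230). Over 7 erythroid markers, of which 5 were tested, 0 rose and 2 fell, the sums were 494 and 525 in WT and 127 and 266 in Q344X, with 2 markers at 0 in at least 1 library. Their part in this result was not tested. Slc25a28, or mitoferrin 2, the form found in most tissues, was at 644 and 673 in WT and 913 and 1001 in Q344X (0.54 ± 0.17, adjusted p = 0.0894). Per kilobase, Slc25a37 was 40.2% and 21.8% of the mitoferrin sum in WT and 12.2% and 11.2% in Q344X. Slc25a39 and Slc25a40, which carry glutathione, had 0.04 ± 0.25 and 0.05 ± 0.33.

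In 5 members without a settled substrate, 1 rose and 1 fell. Slc25a35 (ENSMUSG00000018740, chromosome 11, 68968131 to 68974365) was at 688 and 617 normalized counts in WT and 191 and 113 in Q344X. The groups were far apart, and the mean fell from 653 ± 50.8 to 152 ± 55.02 (SD, n = 2, log2 fold change -2.14 ± 0.29, SE, adjusted p = 0.0124). It passed in 11 of 12 alternatives and had an adjusted p of 0.0544 when genes of every level above 0 were tested. Its log2 fold change ran from -2.51 to -1.76 when 1 library was left out. Of its exon bases 31.3% are shared with Rangrf, which lies on the opposite strand. Rangrf was at 164 and 236 in WT and 81.2 and 128 in Q344X (-0.94 ± 0.32, adjusted p = 0.0972, and 0.00930 without Q344X replicate 2), and the part of shared reads in either value was not tested. Slc25a46, a protein of the outer mitochondrial membrane that takes part in fusion and fission and is mutated in an optic atrophy syndrome (ENSMUSG00000024259, chromosome 18, 31556111 to 31609911), was at 1213 and 1386 in WT and 2144 and 2113 in Q344X. Both Q344X values were above WT, and the log2 fold change was 0.72 ± 0.17 (adjusted p = 0.0471). This call was close to the threshold and ended without WT replicate 1 (0.399) or 2 (0.192), with both other scalings (0.0511 and 0.0533) and without a filter (0.0900). Slc25a53 had 0.52 ± 0.18 (adjusted p = 0.106), Slc25a47 0.20 ± 0.32 and the low Slc25a45 -0.24 ± 0.36, none past the threshold.

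Carriers of carboxylates, amino acids and acylcarnitine gave no call. Of the 3 carboxylate carriers, Slc25a1, which exports citrate, was at 181 and 257 in WT and 176 and 319 in Q344X (0.14 ± 0.35, SE). The dicarboxylate carrier Slc25a10 and the oxoglutarate carrier Slc25a11, the second carrier of the malate-aspartate shuttle, had 0.08 ± 0.22 and -0.04 ± 0.20, and all 3 overlapped between genotypes. Slc25a2, an ornithine carrier, had the widest interval and a log2 fold change of 1.02 ± 0.44, with 8.32 and 10.03 in WT and 15.8 and 23.995 in Q344X (adjusted p = 0.166). Slc25a15, the main ornithine carrier, had 0.38 ± 0.23, the acylcarnitine carrier Slc25a20 0.02 ± 0.20, the glycine carrier Slc25a38 -0.09 ± 0.34, the basic amino acid carrier Slc25a29 -0.35 ± 0.38 (adjusted p = 0.547, with -0.86 and 0.0429 without Q344X replicate 2, and 0.16 and 0.701 without replicate 1) and the branched-chain amino acid carrier Slc25a44 0.18 ± 0.18. None of these 6 passed (limma, with 0 of them under 0.05 before adjustment). The 3 uncoupling-protein-like carriers did not pass either. Slc25a27, or UCP4, a neuronal form, was at 799 and 641 in WT and 1234 and 917 in Q344X (0.57 ± 0.23, adjusted p = 0.140, with 0.79 and 0.0324 without Q344X replicate 2, and 0.36 and 0.291 without replicate 1). Slc25a14, or UCP5, had 0.06 ± 0.19 and Slc25a30 had 0.18 ± 0.27.

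Libraries of the same genotype differed from each other in the carriers too. The median size of that difference was 0.24 in WT and 0.25 in Q344X on the log2 scale (replicate 2 against replicate 1), beside a median absolute fold change of 0.35 between genotypes. For all genes tested the within-genotype values were 0.24 and 0.35, beside 0.46 between genotypes. A difference between 2 single libraries varies more than a difference between 2 means of 2 libraries, so the 2 kinds of value are not alike. In both genotypes 18 members were higher in replicate 2, 8 were lower, and 15 differed in direction. Across the 41 members the 2 differences correlated with Pearson r = 0.51 and Spearman rho = 0.55, beside 0.48 and 0.61 across all tested genes. These are descriptions across genes, which are not independent and share the 4 libraries. Exon length had a rho of -0.33 with the WT difference and -0.51 with the Q344X difference, beside -0.15 and -0.35 across all tested genes. GC content had 0.41 and 0.30, beside 0.36 and 0.35. Slc25a29 (2606 bases of exon, 60.4% GC) was at 297 and 426 in WT and 196 and 397 in Q344X, replicate 1 first. Slc25a38 (2747 bases, 55.9% GC) was at 539 and 801 and at 467 and 820. Slc25a40, with 8386 bases of exon and 39.4% GC, showed the reverse, with 335 and 223 in WT and 365 and 220 in Q344X. With each library corrected for exon length and GC content, 6 members rose and 2 fell, the added ones being Slc25a24 (adjusted p = 0.0403), Slc25a28 (0.0485) and Slc25a51 (0.0236). That correction also changed the balance of calls over all genes, 37.5% of which were higher in Q344X without it and 50.4% with it. The replicate numbers here were given in the order of the samples and pair nothing across the genotypes.

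**Figure D4:**
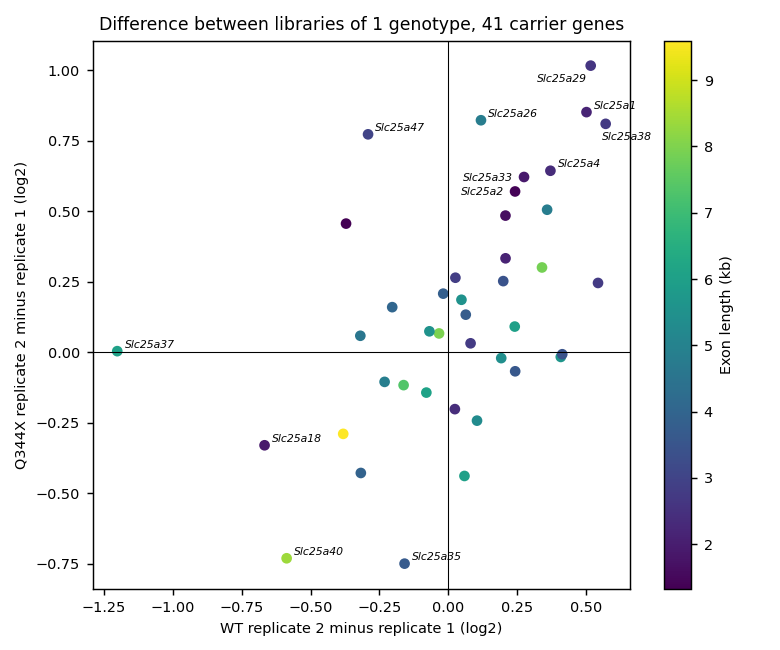
For each of 41 carrier genes, the log2 difference between replicates 2 and 1 in WT (horizontal) and in Q344X (vertical), coloured by exon length in kilobases. In the upper right quadrant 18 genes were higher in replicate 2 of both genotypes, Slc25a29 and Slc25a1 among them, and 8 in the lower left were lower in both.

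The other genes of mitochondrial transport and metabolism were called in 11.5% of cases, beside 14.6% of all tested genes. In 6 partner lists, 113 genes were tested, 3 rose (2.65%, beside 5.46% of all tested genes), 10 fell (8.85%, beside 9.1%) and 100 did not pass. Of 23 other inner-membrane transporters, 4 fell, where 9.1% of all tested genes did, and 0 rose (median 0.10). Of the 5 sideroflexins in the list, a family that includes serine carriers, 3 fell, Sfxn4 (-1.14 ± 0.21, SE), Sfxn2 (-0.95 ± 0.18) and Sfxn5 (-0.70 ± 0.17). The other two, Sfxn1 (0.33 ± 0.18, adjusted p = 0.243) and Sfxn3 (0.03 ± 0.18, adjusted p = 0.922), did not pass. Of 13 genes of the import route that brings carrier proteins to the inner membrane, 0 passed (limma, with 5 under 0.05 before adjustment). The median of that list was 0.42, with 11 above 0 and 2 below. Over all tested genes the median was 0.02, 8616 were above 0 and 8217 below, and 34.7% were under 0.05 before adjustment. The outer-membrane receptors had 0.42 ± 0.18 for Tomm70a, which binds carrier precursors, 0.49 ± 0.22 for Tomm20 and 0.64 ± 0.24 for Tomm22. Timm29, a subunit of the carrier translocase, had 0.67 ± 0.19 (adjusted p = 0.0650). The highest values in the list were 0.93 ± 0.30 for Timm10 (adjusted p = 0.0895) and 0.78 ± 0.21 for Timm9 (adjusted p = 0.0590). The 2 below 0 were Timm10b, a small chaperone subunit of that route (-0.73 ± 0.20, adjusted p = 0.0597), and Timm22, the channel subunit of the translocase (-0.31 ± 0.25). Without Q344X replicate 1, Tomm20 (0.0368), Tomm22 (0.00723) and Timm29 (0.0206) passed, and without Q344X replicate 2 Tomm20 and Tomm22 had 0.30 (0.418) and 0.38 (0.294). In that list the median difference between replicates 2 and 1 was 0.50 in Q344X and 0.30 in WT.

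For each list that follows, the reference is the 5.46% of all tested genes that rose and the 9.1% that fell. Of 27 genes of the citric acid cycle and of mitochondrial mass, 2 rose and 1 fell (median 0.16). Phb2, a prohibitin of the inner membrane, was at 1330 and 1551 in WT and 2852 and 3655 in Q344X (1.17 ± 0.20, SE, adjusted p = 0.0229). Tfam, the packaging and transcription factor of mitochondrial DNA, had 0.82 ± 0.19, and Ppargc1a, a coactivator of mitochondrial genes, had -0.81 ± 0.17, both past the threshold. Of 13 tested genes that hand on ADP and ATP, 3 fell and 0 rose (median 0.18): Hk2 (-3.53) and Hk1 (-0.82), hexokinases that use ATP at the mitochondrial surface, and Ak4, an adenylate kinase of the matrix, at 589 and 683 in WT and 190 and 220 in Q344X (-1.63 ± 0.20, adjusted p = 0.0100). Of 18 iron, heme and glutathione genes 1 rose, the ferritin light chain Ftl1 (0.75 ± 0.18, adjusted p = 0.0473), and 0 fell (median 0.21). Fth1, the ferritin heavy chain, and Gpx4, a glutathione peroxidase, had 0.60 ± 0.36 and 0.52 ± 0.38, and neither passed. Without Q344X replicate 1 they had 1.07 and 1.03 (adjusted p = 0.00405 and 0.00399), and without Q344X replicate 2 they had 0.13 and 0.0044 (0.766 and 0.993). Of these 13 partner genes past the threshold, Hk2 and Ak4 kept their calls with each library left out. Leaving out WT replicate 1 ended the other 11 calls (adjusted p between 0.0768 and 0.350). Leaving out WT replicate 2 ended 9 (between 0.0643 and 0.304), and leaving out Q344X replicate 2 ended 3 (between 0.0606 and 0.0784).

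**Figure D5:**
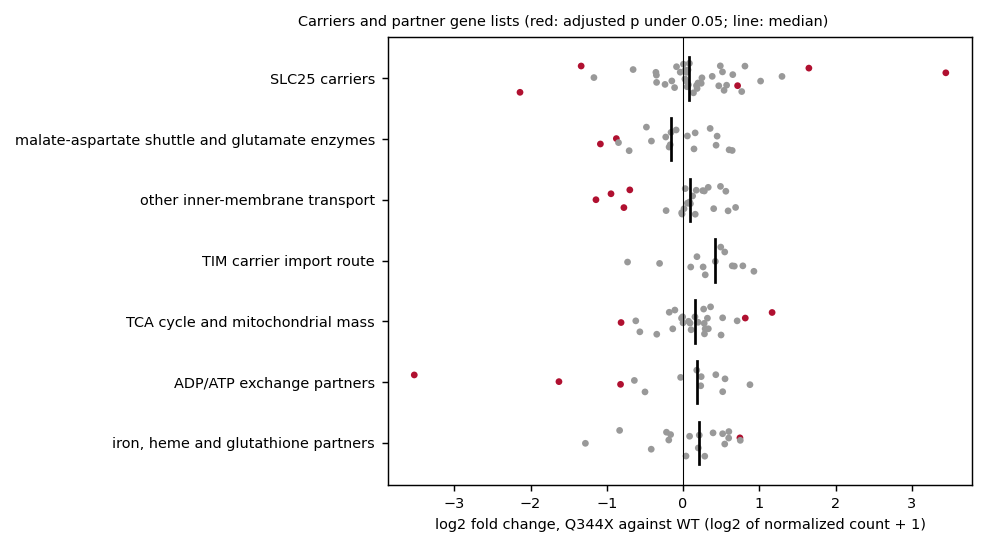
Log2 fold change in Q344X against WT of each tested gene in the carrier family and in 6 lists of partner genes, with the median of each list as a vertical line and genes past the threshold in red. Medians lie between -0.16 and 0.42, and the carriers hold red points on both sides, from -2.14 to 3.45, while the red points of the other inner-membrane transporters all lie below 0.

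The carriers under the mean of 10 were not tested. Slc25a34 had a mean of 9.24, Slc25a48 8.23, Slc25a21, the oxoadipate carrier, 7.03, Slc25a31, the ADP/ATP carrier of the testis, 4.62 and Slc25a43 2.80, and Slc25a54 was at 0 in every library. The members just inside the limit were Slc25a2 with a mean of 14.5, Slc25a45 with 19.7 and Slc25a41 with 22.9.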

How the data were processed

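The deposited table holds 4 retinal poly-A RNA-seq libraries (directional kit, per the labels' protocols). Its unit is a signal per Ensembl gene, taken here as the authors' counts scaled by 1 size factor per library, which is read from the values (100% of those above 0 lie within 0.1 of a whole multiple of the column's smallest). Per the submitters' processing notes, the authors used DESeq2 1.16.1, featureCounts, STAR, Trim Galore 0.4.4 and FastQC, and build mm10. Their annotation and strand setting: not given in the sources used here. Symbols were matched by identifier for 52403 of 52636 genes, and positions and exon lengths (union of exons) are from GENCODE M21 on GRCm38. Promoters are RefSeq's. Genes with a mean of at least 10 were tested (16833) with limma 3.58.1 in R 4.3.3 on log2(value + 1), with a variance trend, two-sided, Benjamini-Hochberg adjusted, threshold 0.05. Fold changes on this scale understate low genes. The fit was tested on simulated data. An exact permutation test of 2 against 2 cannot go below p = 0.333, so calls rest on the variance limma shares between genes. Nothing ties the libraries to separate animals except the design text, so p-values measure the spread between libraries. No count model was run. Members, gene lists and tests were chosen with earlier results of these data known. Some genes that enter the counts are not reported here by name. Otherwise, named with every library's value were the called members, the glutamate and aspartate carriers, the 4 highest per kilobase and the largest change in each role. Of each partner list up to 4 genes were chosen by rule, called ones first. Any further member or partner gene named was picked with its values known. The alternatives tried were a minimum mean of 50 or any value above 0, a pseudocount of 0.5 or 5, 75th percentile scaling, quantile normalization, robust moderation, a loess correction for exon length and GC content, and leaving out each library, with the filter applied to the 3 kept.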

Additional observations from a re-analysis of the deposited data

How the results depend on the processing

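Pseudocounts of 0.5 and 5, robust moderation and a minimum mean of 50 (which leaves 38 members) left 3 carriers higher and 2 lower, and both other scalings left 2 and 2. Testing every gene above 0 gave 153 genes higher and 383 lower, with 1 carrier higher (Slc25a18) and 1 lower. The length and GC correction gave 1984 genes higher, 6 carriers higher and a median of 0.19 for the carriers. Leaving out 1 library gave 555 to 2388 genes higher and 904 to 3045 lower, 2 to 8 carriers higher and 2 to 4 lower, with medians of 0.11 to 0.21. A fit without 1 library takes its variance from the intact pair, and its lone sample is assumed to vary like that pair. Over 489 member values in 12 alternatives, 427 kept direction and side of the threshold, 7 lost a call, 14 gained one and 41, in 16 members, changed sign, none of them called. Under 75th percentile scaling the changed values were -0.0329 for Slc25a5, -0.0335 for Slc25a20, -0.0126 for Slc25a22, -0.0184 for Slc25a39, -0.00458 for Slc25a40 and -0.0532 for Slc25a33. Under quantile normalization they were -0.0354 for Slc25a5, -0.0321 for Slc25a22, -0.0554 for Slc25a33, -0.000535 for Slc25a36 and 0.16 for Glul. Under the length and GC correction they were 0.00125 for Slc25a25, -0.12 for Slc25a10, -0.0331 for Slc25a1, -0.0166 for Slc25a22 and -0.15 for Slc25a39. With 1 library left out, ranges that cross 0 were -0.22 to 0.27 for Slc25a5, -0.28 to 0.0589 for Slc25a25, -0.49 to 0.32 for Slc25a38, -0.86 to 0.16 for Slc25a29, -0.0911 to 0.14 for Slc25a20, -0.19 to 0.58 for Slc25a47, -0.20 to 0.13 for Slc25a11, -0.12 to 0.29 for Slc25a10, -0.29 to 0.56 for Slc25a1, -0.0750 to 0.17 for Slc25a22, -0.23 to 0.31 for Slc25a39, -0.31 to 0.42 for Slc25a40, -0.31 to 0.32 for Slc25a33, -0.12 to 0.26 for Slc25a36, -0.77 to 0.0547 for Slc25a26, -0.0360 to 0.17 for Slc25a14 and -0.40 to 0.0702 for Tfrc. The causes were not tested. No paired analysis was possible because the labels carry no replicate numbers.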
